A study of Homo sapiens with 11 samples.

Results

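The mature miRNAs of the miR-199, miR-214, miR-143 and miR-145 hairpins were followed across 6 human tumour-derived cell lines. The members were chosen by name, and all 8 were listed among the 2588 mature miRNAs of the deposited tables: hsa-miR-199a-5p, hsa-miR-199a-3p, hsa-miR-199b-5p, hsa-miR-199b-3p, hsa-miR-214-3p, hsa-miR-214-5p, hsa-miR-143-3p and hsa-miR-145-5p. Small RNA-seq was performed for A549 (lung cancer), ES2 (ovarian cancer), MV3 (melanoma), BE(2)C (neuroblastoma) and HepG2 (liver cancer) in 2 libraries each, and for PANC1 (pancreatic cancer) in 1 library. All lines were parental and untreated. For A549, ES2, MV3 and PANC1, a NEXTflex kit was applied to 50 ng RNA, whereas BE(2)C and HepG2 libraries came from Novogene, so that preparation and line cannot be told apart between these sets of lines. Cells were harvested 48 h after seeding, except that the treatment protocol gives 24 h for BE(2)C where the sample characteristics give 48 h. The study's methods call the 2 libraries of a line biological replicates without saying how they were separated. The p-values rest on the spread between such libraries, estimated jointly for all lines, and not on that of the compared lines alone.

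A miRNA is a short RNA cut from a hairpin precursor whose 5p and 3p arms can each be loaded into an Argonaute protein, where bases 2 to 8 of the miRNA, the seed, pair with target mRNAs. MiR-199a, miR-199b and miR-214 are known from fibroblasts and other mesenchymal cells and from the developing skeleton, and miR-143 and miR-145 from smooth muscle. In tissues, all of them are commonly read as signs of stromal cells, which established cell lines lack. In bulk libraries such as these, fewer expressing cells and less of a miRNA per cell cannot be told apart.

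The mature sequences are shown because the arms differ in seed, and because the 3p members of the miR-199 hairpins are the same molecule. Sequences were taken from RefSeq (GRCh38.p14), which held 7 of the 8 members with 6 distinct sequences. They are written 5′ to 3′ with the seed in capitals.
hsa-miR-199a-5p: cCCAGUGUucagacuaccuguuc
hsa-miR-199a-3p: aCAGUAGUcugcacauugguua
hsa-miR-199b-3p: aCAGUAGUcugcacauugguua
hsa-miR-214-3p: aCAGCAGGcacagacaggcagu
hsa-miR-214-5p: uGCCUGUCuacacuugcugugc
hsa-miR-143-3p: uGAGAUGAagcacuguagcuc
hsa-miR-145-5p: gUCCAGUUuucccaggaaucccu
MiR-199a-3p and miR-199b-3p had 0 differences over their 22 bases and thus share the seed CAGUAGU. The seed of miR-214-3p, CAGCAGG, differed from it at 2 of the 7 positions. The other printed seeds were each found in 1 of the 7 printed members. No entry was held for miR-199b-5p, so its seed was not compared.

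The hairpins lie at 6 loci of the human genome (hg38, GENCODE 44). MIR199A2 (chr1:172144535-172144644, minus strand) and MIR214 (chr1:172138798-172138907, minus strand) are separated by 5627 bases. Both overlap exons of the long non-coding RNA gene DNM3OS, which runs on the same strand within an intron of DNM3. A further copy of miR-199a, MIR199A1 (chr19:10817426-10817496, minus strand), lies in an intron of DNM2 on the opposite strand. MIR199B (chr9:128244721-128244830, minus strand) likewise lies opposite to its host, in an intron of DNM1. MIR143 (chr5:149428918-149429023, plus strand) overlaps an exon, and MIR145 (chr5:149430646-149430733, plus strand) an intron, of the non-coding gene CARMN, with 1622 bases between them. MIR214 overlaps MIR3120 on the opposite strand, but hsa-miR-3120-3p and hsa-miR-3120-5p were listed with 0 reads in all 11 libraries.

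Each table gave mature miRNAs of several loci 1 row per locus. Reads of the miR-199-3p sequence were spread over the rows of chromosomes 1, 19 and 9 with 32.5% to 34.2% each in the 6 libraries with at least 10015 such reads, which are those of ES2, MV3 and BE(2)C. Likewise, each of the 2 rows of miR-199a-5p held 46.5% to 53.5% of its reads in these libraries, the lowest of which had 1096. MiR-199a-3p and miR-199b-3p are therefore the same measurement split by row, and neither can be placed at a locus. The reads of miR-199b-5p, which is listed at a single row, are the members' only separate reading of MIR199B. In HepG2, where the sequence had 94 and 69 reads, the chromosome 9 row held 22.3% and 24.6% of them.

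**Figure D1:**
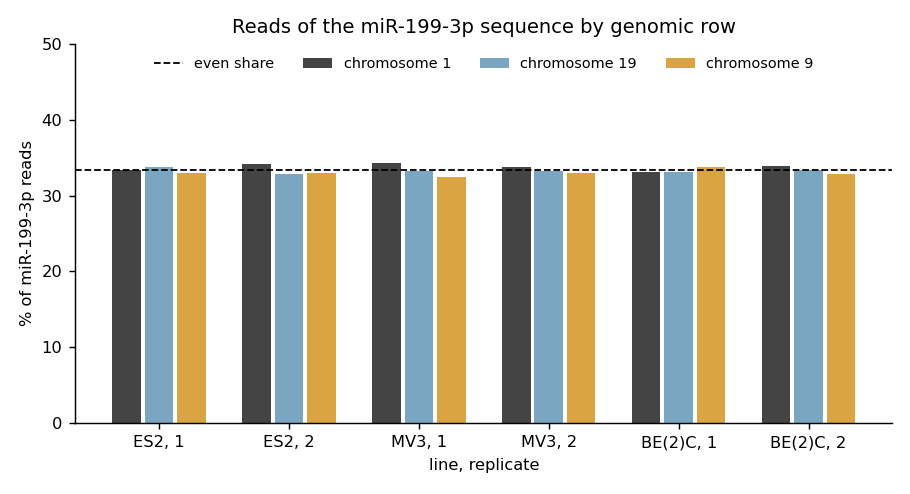
Bars give the percentage of miR-199-3p reads (y axis) at the rows of chromosomes 1, 19 and 9 in each library of ES2, MV3 and BE(2)C (x axis, line and replicate), and the dashed line marks an even share of 33.3%. All bars stand between 32.5% and 34.2%.

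Levels are given as CPM, the read count of a miRNA scaled to a common total of miRNA reads per library. The libraries held 1173902 to 12137452 such reads. Where 0 reads were counted, a level of up to 3 reads (0.247 to 2.56 CPM, depending on depth) remains possible. Such limits and all intervals cover counting error only, because PCR reads are not independent molecules. MiR-148a-3p took 75.3% and 72.6% of the HepG2 reads, and miR-21-5p 65.0% and 64.2% of those of A549, which lowers the CPM of all other miRNAs of these libraries. TMM factors, which rescale libraries to a common middle of all miRNAs, were 0.166 and 0.217 for HepG2, whereas the other libraries had 1.02 to 1.87. They moved the median log2 difference of all 546 tested miRNAs between BE(2)C and HepG2 from 2.79 to 0.49, and between HepG2 and A549 from -1.55 to -0.23. The replicates of BE(2)C differed most, with 24.4% of miRNAs over 2-fold apart against 0.602% to 5.59% in the other lines. Because the tests use a spread shared by all lines, p-values of BE(2)C contrasts may be too small. In BE(2)C replicates 1 and 2, the liver miRNA miR-122-5p had 823 and 5.96 CPM, against 64.0 and 50.0 CPM in HepG2. Of the other liver miRNAs read, miR-192-5p had 1288 and 578 CPM in BE(2)C, but miR-194-5p went the other way with 160 and 258 CPM. The red blood cell miRNA miR-451a had 299 and 46.0 CPM in these replicates. The part of such differences in the members' values was not tested.

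MiR-199a-5p, whose seed differs from that of miR-199-3p, was abundant in ES2, MV3 and BE(2)C and near the detection limit in the other lines. It had 659 and 680 CPM in ES2, 1234 and 1409 CPM in MV3, and 1143 and 2982 CPM in BE(2)C. A549 had 2.25 and 0.485 CPM, which are 6 reads and 1 read. HepG2 had 1.01 and 0.494 CPM (12 and 6 reads) and PANC1 0.308 CPM (3 reads). Every library of the former lines was thus above 600 CPM and every library of the latter below 3 CPM. These sets of lines were formed from the same values, so their separation is a description and no test. On the log2(CPM + 1) scale, A549 minus MV3 was -9.23 ± 0.51 (SE, limma adjusted p = 7.6e-06) and A549 minus ES2 was -8.25 ± 0.51 (adjusted p = 1.1e-05). BE(2)C exceeded HepG2, its partner in preparation, by 10.06 ± 0.51 (adjusted p = 6.9e-07). Among the lines with high levels, the order was BE(2)C with 2062 ± 1301 CPM, MV3 with 1322 ± 124 CPM and ES2 with 669 ± 14.7 CPM (SD, n = 2 each). The neighbours in this order did not pass the test: BE(2)C minus MV3 was 0.48 ± 0.51 (adjusted p = 0.41), and ES2 minus MV3 was -0.98 ± 0.51 (adjusted p = 0.19).

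The miR-199-3p sequence, printed above for both 3p members, was highest in MV3. MiR-199a-3p had 8771 and 8078 CPM in MV3, 4039 and 4071 CPM in ES2, and 885 and 2365 CPM in BE(2)C. It had 14.4 CPM in PANC1, 6.74 and 3.88 CPM in A549, and 6.14 and 4.28 CPM in HepG2. The lines therefore fell into the same sets as for the 5p arm, but BE(2)C here had the lowest level of the 3 high lines. Both rows of the sequence together reached 12525 ± 665 CPM in MV3 (SD, n = 2), 6049 ± 38.4 CPM in ES2 and 2427 ± 1544 CPM in BE(2)C. For miR-199a-3p, BE(2)C minus MV3 was -2.54 ± 0.44 (SE, limma adjusted p = 0.0010). BE(2)C minus ES2 was -1.49 ± 0.44 (adjusted p = 0.016), and this call was lost without ES2 replicate 1 (adjusted p = 0.0610), ES2 replicate 2 (0.0611) or BE(2)C replicate 1 (0.0657). ES2 minus MV3 was -1.05 ± 0.44 (adjusted p = 0.11) and passed the test without BE(2)C replicate 1 (0.0248) or 2 (0.0228), which changed the shared estimate of the spread. MiR-199b-3p, the row of chromosome 9, followed its twin with 4224 and 3977 CPM in MV3, 1982 and 2004 CPM in ES2, and 450 and 1154 CPM in BE(2)C. It had 6.77 CPM in PANC1, and 0.971 to 3.75 CPM in the libraries of A549 and HepG2.

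MiR-199b-5p, which is read from MIR199B alone, had another order of lines. It had 173 and 345 CPM in BE(2)C, 40.3 and 65.4 CPM in ES2, and 19.0 and 21.0 CPM in HepG2. PANC1 had 7.49 CPM (73 reads), whereas 0 reads were counted in either library of MV3 and A549. MV3 was thus the line with the highest miR-199-3p and no detected miR-199b-5p, and HepG2 held more miR-199b-5p than miR-199a-5p. At a limit of 3 reads per library, ES2 was at least 23.5-fold higher than MV3 (limma adjusted p = 4.9e-05) and at least 41.0-fold higher than A549 (adjusted p = 1.9e-05). BE(2)C was at least 115-fold higher than MV3 (adjusted p = 1.1e-06). HepG2 was at least 15.5-fold higher than A549 (adjusted p = 3.4e-05) and at least 8.91-fold higher than MV3 (adjusted p = 3.0e-05). These p-values belong to the fitted differences and not to the bounds. MV3 and A549, with 0 reads in every library, add no spread to the estimate for this member. BE(2)C exceeded ES2 by 2.23 ± 0.41 on the log2 scale (SE, adjusted p = 0.0013). The order of ES2 and HepG2 depended on the scaling: HepG2 minus ES2 was -1.32 ± 0.41 on CPM (adjusted p = 0.023) and 1.41 ± 0.39 with TMM factors (adjusted p = 0.013). On CPM, this call was also lost without ES2 replicate 2, HepG2 replicate 1 or HepG2 replicate 2 (adjusted p = 0.0793 to 0.130).

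MiR-214-3p, the arm of miR-214 most often studied, was found in BE(2)C and MV3. It had 206 and 367 CPM in BE(2)C and 29.0 and 49.1 CPM in MV3. A549 had 1.5 and 2.91 CPM (4 and 6 reads). ES2 had 0 and 2 reads, PANC1 0 reads and HepG2 3 and 2 reads, which are at or under the limit. Hence ES2, with its abundant miR-199a-5p, had no level of miR-214-3p above the limit. The counted reads of MV3 were 79.9-fold those of ES2 after division by library size (95% exact interval 21.6 to 668, counting error only), and the line means differed (limma adjusted p = 0.00021). BE(2)C exceeded MV3 by 2.83 ± 0.48 on the log2 scale (SE, adjusted p = 0.00091), and A549 minus MV3 was -3.63 ± 0.48 (adjusted p = 0.00052).

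MiR-214-5p, the other arm of the same hairpin, had 248 and 402 CPM in BE(2)C, a mean of 325 ± 109 CPM (SD, n = 2). In the remaining 9 libraries, 1 read was counted in A549 replicate 2 and 0 in the others. The level in BE(2)C was at least 1301-fold higher than in HepG2 (limma adjusted p = 1.7e-07) and at least 209-fold higher than in ES2 (adjusted p = 1.9e-07). It also exceeded that of MV3 (adjusted p = 1.9e-07). Against the single read of A549, the ratio was 1512 (95% exact interval 271 to 59746). MiR-214-5p passed the filter of 10 CPM through BE(2)C alone, and lines with 0 reads in every library add no spread to its estimate. The limma p-values of this member are therefore no separate support for its high level in BE(2)C. The MV3 libraries, in which miR-214-3p had 34 and 76 reads, had 0 reads of miR-214-5p.

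MiR-143-3p, the main arm of miR-143, was the most abundant member in A549, BE(2)C, HepG2 and PANC1. It had 23979 and 18824 CPM in BE(2)C, 2702 and 2519 CPM in HepG2, and 1525 and 1553 CPM in A549. MV3 had 1216 and 1197 CPM, whereas ES2 had 7.82 and 21.4 CPM and PANC1 29.8 CPM. By rank, miR-143-3p was 11th in both BE(2)C libraries and 8th and 9th in those of HepG2, but 296th and 235th in ES2. On the log2 scale, ES2 minus MV3 was -6.43 ± 0.38 (SE, limma adjusted p = 2.3e-05) and A549 minus ES2 was 6.78 ± 0.38 (adjusted p = 7.4e-06). A549 and MV3 were neighbours, with a difference of 0.35 ± 0.38 (adjusted p = 0.47), which passed the test with TMM factors (1.15 ± 0.40, adjusted p = 0.046). BE(2)C exceeded HepG2 by 3.03 ± 0.38 on CPM (adjusted p = 0.00013), but by 0.02 ± 0.40 with TMM factors (adjusted p = 1.0). The excess of BE(2)C over A549 held on both scales, with 3.79 ± 0.38 on CPM (adjusted p = 4.6e-05) and 3.26 ± 0.40 with TMM factors (adjusted p = 0.00012). HepG2 minus MV3 was 1.11 ± 0.38 (adjusted p = 0.031), and this call was lost without any library of A549, MV3, BE(2)C or HepG2 (adjusted p = 0.0556 to 0.114), whereas the difference was 4.39 ± 0.40 with TMM factors (adjusted p = 2.9e-05). HepG2 minus A549 was 0.76 ± 0.38 (adjusted p = 0.11) and was called without ES2 replicate 1 (0.0060) or 2 (0.0059).

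MiR-145-5p, whose hairpin lies next to that of miR-143, was much less abundant. It had 123 and 193 CPM in BE(2)C, 21.3 and 25.1 CPM in HepG2, and 11.6 and 18.9 CPM in A549. MV3 had 7.67 and 18.7 CPM, and 0 reads were counted in both ES2 libraries and in PANC1. The lines were therefore ordered as for miR-143-3p where reads were counted. MV3 was at least 8.48-fold higher than ES2 (limma adjusted p = 0.00089) and A549 at least 9.82-fold higher (adjusted p = 0.00024). Here too the p-values belong to the fitted differences, and ES2 with 0 reads adds no spread to the estimate. A549 minus MV3 was 0.28 ± 0.47 (SE, adjusted p = 0.67), and the libraries of these lines overlapped. BE(2)C exceeded HepG2 by 2.68 ± 0.47 on CPM (adjusted p = 0.00097), and with TMM factors the sign turned (-0.27 ± 0.43, adjusted p = 0.62). BE(2)C exceeded A549 by 3.29 ± 0.47 on CPM (adjusted p = 0.00036) and by 2.76 ± 0.43 with TMM factors (adjusted p = 0.00049). HepG2 minus MV3 was 0.88 ± 0.47 (adjusted p = 0.14) and was called without MV3 replicate 2 (adjusted p = 0.0264). With TMM factors it was 4.02 ± 0.43 (adjusted p = 6.8e-05), and edgeR (4.07) and DESeq2 (4.36) called it too.

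**Figure D2:**
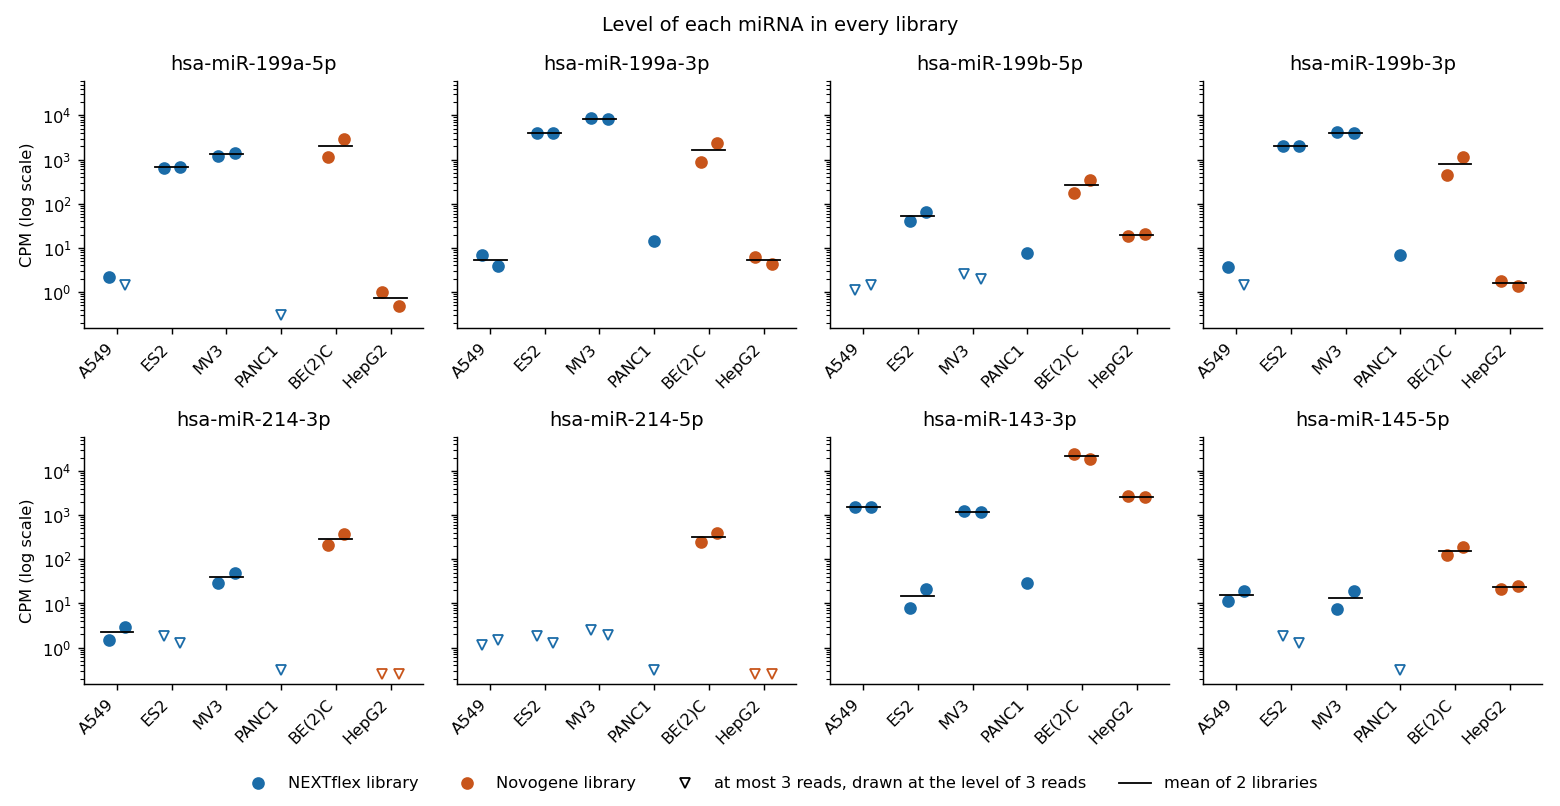
Each panel gives the level of a member in every library as CPM (y axis, log scale) by line (x axis), with NEXTflex libraries in blue and Novogene libraries in orange; black lines are means of 2 libraries, and open triangles mark libraries with at most 3 reads, drawn at the level of 3 reads. MiR-199a-5p stands above 600 CPM in ES2, MV3 and BE(2)C and below 3 CPM elsewhere, whereas miR-143-3p is above 1000 CPM in A549, MV3, BE(2)C and HepG2 and below 30 CPM in ES2 and PANC1.

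The tests over all miRNAs give the background for these calls. All 8 members differed between the 6 lines (limma F test), where 99.3% of the 546 tested miRNAs were called. Among the 4 NEXTflex lines, all 7 members that passed the filter of 10 CPM were called, against 85.4% of 453 tested miRNAs, and miR-214-5p did not pass the filter. Being called in these F tests therefore does not set the members apart from miRNAs at large.

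Within the NEXTflex preparation, A549 and ES2 differed in 6 members, of which 4 were lower in A549 (the miR-199 members) and 2 higher (miR-143-3p and miR-145-5p), where 50.5% of all miRNAs were called. A549 and MV3 differed in 4 members, all lower in A549 (miR-199a-5p, both 3p rows of miR-199 and miR-214-3p), against 57.3% of all miRNAs. ES2 and MV3 differed in 4 members, with miR-199b-5p higher in ES2 and miR-214-3p, miR-143-3p and miR-145-5p lower, against 32.8% of all miRNAs. The 3 lines were hence separated by different members. MiR-199a-3p and miR-199b-3p, the same measurement split by row, stand as 2 members in all counts of called members and in the medians. A call of this sequence on both rows thus enters such a count as 2. The median over members with more than 3 reads in either line was -5.36 for A549 minus ES2, -6.43 for A549 minus MV3 and -1.05 for ES2 minus MV3 on the log2 scale, taking members at 0 reads at their bound. The median over all tested miRNAs was -0.17, -0.47 and -0.36, and fitted over all 8 members it was -2.71, -1.82 and -1.05.

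Within the Novogene preparation, all 8 members were higher in BE(2)C than in HepG2, where 83.0% of all miRNAs were called. With TMM factors, 5 members were called: miR-199a-5p (7.97 ± 0.55), miR-199a-3p (5.08 ± 0.46), miR-199b-3p (5.66 ± 0.51), miR-214-3p (6.42 ± 0.45) and miR-214-5p (7.70 ± 0.27; SE, limma adjusted p = 1.1e-07 to 1.9e-05). MiR-199b-5p (0.60 ± 0.39, adjusted p = 0.22) joined miR-143-3p and miR-145-5p among those not called. MiR-199a and miR-214 thus separated BE(2)C from HepG2 on both scales, and miR-143-3p and miR-145-5p on CPM alone.

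Between the preparations, BE(2)C exceeded A549 in all 8 members, against 76.7% of all miRNAs called. BE(2)C and ES2 differed in 8 members (77.5% of all miRNAs called), with both 3p rows of miR-199 lower and the other 6 members higher in BE(2)C. Of these calls, miR-199a-5p (1.46 ± 0.51, limma adjusted p = 0.030) was lost without BE(2)C replicate 2 or any of the ES2 and MV3 libraries (adjusted p = 0.0505 to 0.192), and with TMM factors (adjusted p = 0.069). MiR-199b-3p (-1.47 ± 0.51, adjusted p = 0.030) was lost without BE(2)C replicate 1 or any of the ES2 and MV3 libraries (adjusted p = 0.0506 to 0.200). BE(2)C and MV3 differed in 7 members (78.0% of all miRNAs called), of which both 3p rows of miR-199 were lower in BE(2)C and 5 members higher. Preparation cannot be told apart from line in these differences.

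HepG2 was also set against the NEXTflex lines. HepG2 and A549 differed in 2 members, miR-199b-5p (higher in HepG2) and miR-214-3p (lower), against 67.6% of all miRNAs called. The latter rests on 5 reads in HepG2 and was lost without A549 replicate 2, HepG2 replicate 1 or HepG2 replicate 2 (limma adjusted p = 0.110 to 0.163). With TMM factors, 5 members were higher in HepG2 than in A549, among them miR-143-3p by 3.24 ± 0.40 (adjusted p = 0.00014), miR-145-5p by 3.03 ± 0.43 (adjusted p = 0.00032) and miR-199a-3p by 2.26 ± 0.46 (adjusted p = 0.0026). HepG2 differed from ES2 in 6 members (60.8% of all miRNAs called), with the miR-199 members lower and miR-143-3p and miR-145-5p higher in HepG2. HepG2 differed from MV3 in 6 members (69.6% of all miRNAs called), with miR-199a-5p, both 3p rows of miR-199 and miR-214-3p lower and miR-199b-5p and miR-143-3p higher in HepG2. The lower miR-199a-5p and miR-199-3p of HepG2 against ES2 and MV3 were called on both scales.

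**Figure D3:**
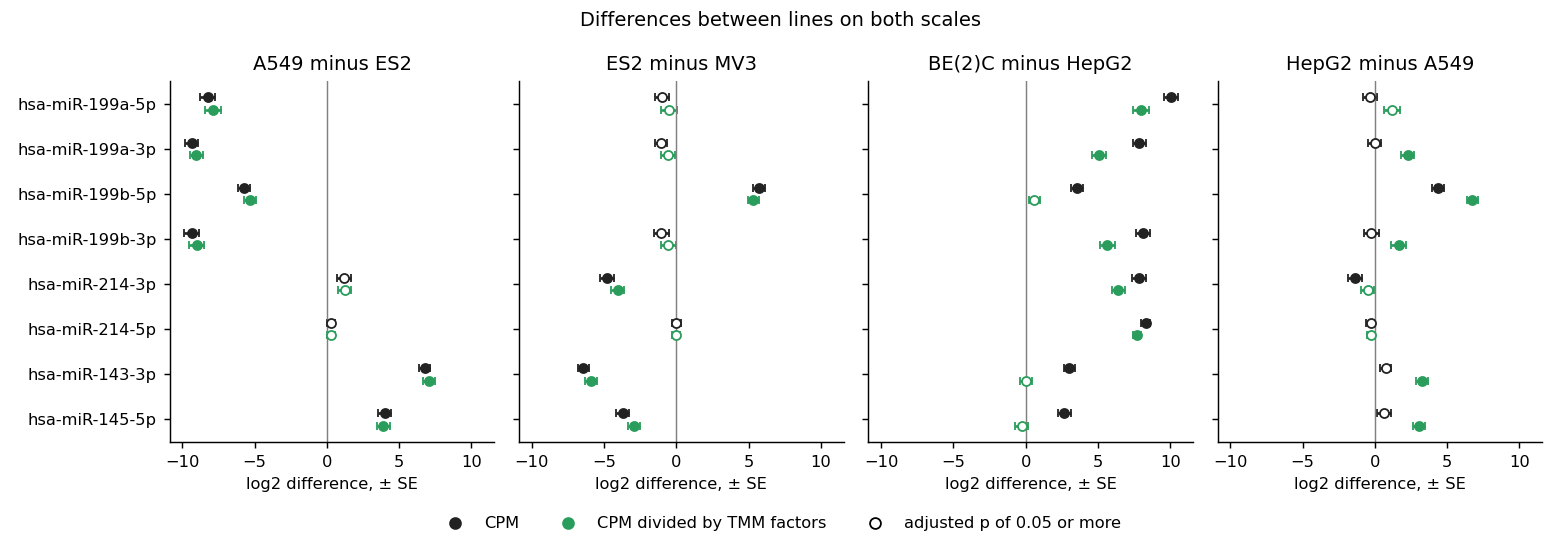
Points give the log2 difference (x axis, ± SE) of each member (y axis) for 4 pairs of lines on CPM (black) and with TMM factors (green), and open points have an adjusted p of 0.05 or more. The same members are called on both scales for A549 minus ES2 and ES2 minus MV3, whereas miR-143-3p moves from 3.03 to 0.02 in BE(2)C minus HepG2 and from 0.76 to 3.24 in HepG2 minus A549.

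Summed over miR-199a and miR-214 and over miR-143 and miR-145, the members were distributed differently over the lines. The former sum (miR-199a-5p, miR-199a-3p, miR-214-3p and miR-214-5p) is not a reading of DNM3OS alone, since it holds the rows of MIR199A1. It amounted to 9785 ± 352 CPM in MV3, 4299 ± 2570 CPM in BE(2)C and 4725 ± 38.1 CPM in ES2 (SD of 2 libraries). The sum was 14.7 CPM in PANC1, 9.13 ± 1.92 CPM in A549 and 6.18 ± 1.74 CPM in HepG2. Without the 3p sequence that MIR199B shares, the order of the high lines became BE(2)C with 2674 ± 1523 CPM, MV3 with 1361 ± 138 CPM and ES2 with 670 ± 15.3 CPM. MiR-143-3p and miR-145-5p together amounted to 21559 ± 3595 CPM in BE(2)C, 2634 ± 127 CPM in HepG2, 1554 ± 25.1 CPM in A549 and 1220 ± 5.71 CPM in MV3, but to 29.8 CPM in PANC1 and 14.6 ± 9.57 CPM in ES2. With TMM factors the means of BE(2)C and HepG2 were 14205 and 14053 CPM. MV3 and BE(2)C were high in both sums, ES2 in the former, A549 and HepG2 in the latter, and PANC1 in neither. The sum of ES2 was made up of the rows named miR-199a. MiR-214, which is listed at DNM3OS alone, had 0 and 2 reads of its 3p arm there and 0 reads of its 5p arm. Most of the ES2 sum was miR-199a-3p with 4055 CPM, whose reads cannot be told apart from those of MIR199B. The 8 members together took 2.72% and 2.66% of the BE(2)C reads, 1.55% and 1.47% of those of MV3, and 0.00587% of those of PANC1.

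The lists of cell type markers were read beside these sums. Of the 6 epithelial miRNAs (miR-200 family, miR-141, miR-429 and miR-205), the summed level was 34.1 to 54.2 CPM over the libraries of ES2, MV3 and BE(2)C. It was 133 CPM in PANC1, 977 and 1026 CPM in A549, and 1434 and 1497 CPM in HepG2. The lines with abundant miR-199a were hence those with the lowest epithelial sums, which is a description of 6 lines. The sums were carried by miR-200b-3p, with 794 and 833 CPM in A549 and 1219 and 1276 CPM in HepG2, and single miRNAs of the list did not all follow them. MiR-200c-3p had 39.7 and 36.6 CPM in ES2 against 34.1 and 61.6 CPM in A549 and 31.9 CPM in PANC1, and miR-141-3p had 4.21 and 4.79 CPM in ES2 and at most 0.485 CPM in A549 and HepG2. MiR-143-3p and miR-145-5p did not divide the lines in this way. Of the 4 muscle miRNAs, miR-1-3p had 6273 CPM and miR-133a-3p 584 CPM in PANC1, but miR-133b 0.205 CPM and miR-206 0 reads, and miR-145-5p also had 0 reads there. Of the 5 blood miRNAs, miR-142-3p (326 and 286 CPM) and miR-142-5p (153 and 140 CPM) were found in ES2, which had the highest blood sum with 480 and 427 CPM. MiR-144-3p had 0 reads in all libraries, miR-223-3p at most 0.971 CPM and miR-451a at most 4.12 CPM outside BE(2)C. The summed level of the 4 neural miRNAs was 153380 and 141643 CPM in BE(2)C and at most 6355 CPM elsewhere. Of the 2 melanocyte miRNAs, it was 1.70 and 1.29 CPM in MV3, against 70.2 and 41.0 CPM in BE(2)C. The acinar miR-216a-5p had at most 0.971 CPM. The part of other cell types in the members' levels was not tested.

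Ratios of reads within a library do not depend on the scaling between libraries. MiR-143-3p had 64.0 to 196 times the reads of miR-145-5p in the 8 libraries of A549, MV3, BE(2)C and HepG2, a 3.06-fold range. In PANC1 and ES2, miR-145-5p had 0 reads, and the ratio was at least 96.7 and at least 4.33 and 16.3. The ratio of these neighbours thus varied little against the level of miR-143-3p, which was 17.6-fold higher in BE(2)C than in MV3 by the fitted difference.

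The ratio of miR-199a-5p to miR-214-3p, which share DNM3OS as a host, varied far more. It was at least 365 in ES2 replicate 1 and 780 in replicate 2 (2 reads of miR-214-3p, 95% exact interval 216 to 6446). It was 42.6 and 28.7 in MV3, and 5.54 and 8.13 in BE(2)C. The libraries of these 3 lines did not overlap. MIR199A1 on chromosome 19 also gives miR-199a-5p, so that reads of DNM3OS itself cannot be told apart from reads of this copy. MiR-199b-5p had 0.0611 and 0.0962 times the reads of miR-199a-5p in ES2, 0.151 and 0.116 times in BE(2)C and at most 0.00207 and 0.00137 times in MV3. In HepG2 it had 18.8 and 42.5 times, and in PANC1 24.3 times (95% exact interval 8.0 to 121). The miR-199 reads of HepG2 and PANC1 on the 5p side were therefore mostly of miR-199b, and those of ES2, MV3 and BE(2)C mostly of miR-199a.

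**Figure D4:**
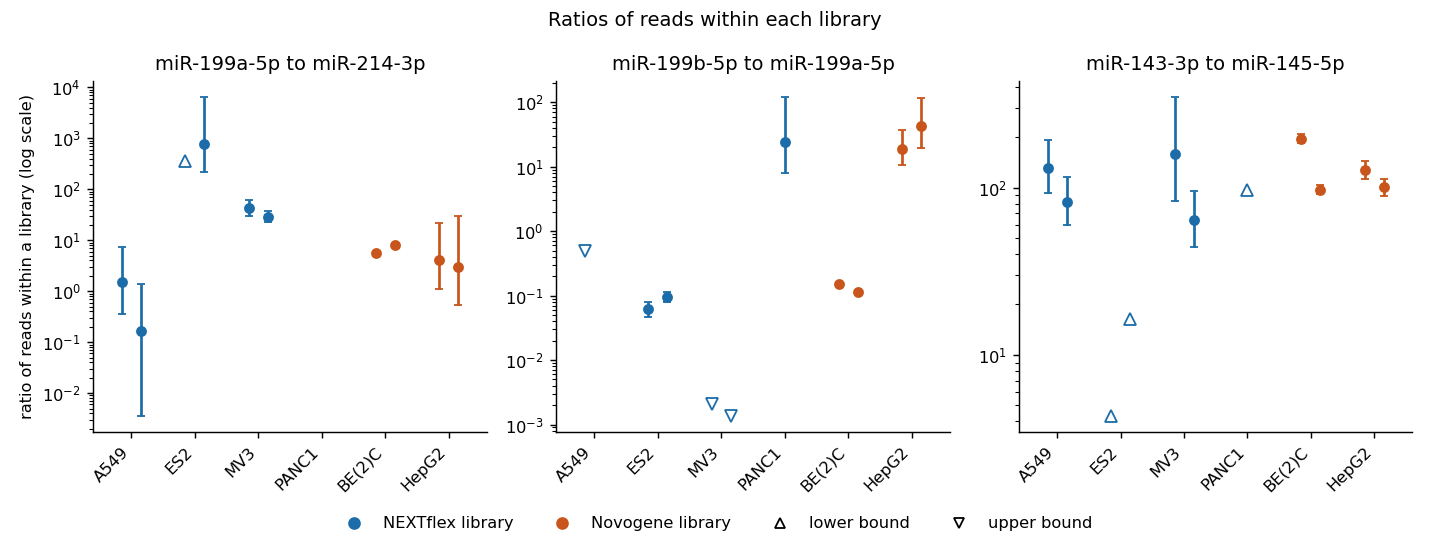
Points give the ratio of reads within each library (y axis, log scale, 95% exact intervals) by line (x axis) for 3 pairs of members, with triangles for bounds where a member had 0 reads. MiR-199a-5p to miR-214-3p falls from over 300 in ES2 to 5.54 and 8.13 in BE(2)C, whereas miR-143-3p to miR-145-5p stays between 64.0 and 196 wherever both were counted.

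The use of arms differed between lines. Of all miR-199 reads, the 5p arms held 10.4% and 10.9% in ES2 and 8.67% and 10.5% in MV3, against 49.6% and 48.6% in BE(2)C. The 95% Wilson intervals, which cover counting error, spanned 8.26% to 11.4% over ES2 and MV3 and 48.1% to 50.3% over BE(2)C. In HepG2, the 5p arms held 71.7% and 79.1% of 332 and 330 reads, and in PANC1 27.0% of 282 reads. The 5p reads of HepG2 were nearly all of miR-199b-5p, with 226 of 238 and 255 of 261 reads. The pooled share was thus higher in both Novogene lines. Between the rows named miR-199a, the ratio of 3p to 5p reads was 6.08 and 8.67 in HepG2 and 0.774 and 0.793 in BE(2)C. It was 6.13 and 5.99 in ES2, and 7.11 and 5.73 in MV3. The 3p reads cannot be placed at a locus and may in part be of MIR199B, so this ratio is no reading of arm use at miR-199a. For miR-145, 5p held 78.1% to 82.5% in the Novogene libraries and 47.0% to 61.7% in those of A549 and MV3. MiR-214 had 54.6% and 52.3% of its reads on the 5p arm in BE(2)C and 0% of 34 and 76 reads in MV3 (upper 95% limits 10.2% and 4.81%). Preparation and line cannot be told apart in these shares.

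Other hairpins were examined for the same shift, a comparison chosen after the shares had been seen. From ES2 and MV3 to BE(2)C, log2 of 5p over 3p reads was higher by 3.11 for miR-199. The 28 other hairpins with at least 50 reads on each arm in all 6 libraries had a median of -1.09 and a range from -9.44 to 2.44, and 8 of them were above 0. Most of these hairpins thus had the opposite direction, and the value of miR-199 lay above their range, which was not tested. The minor arms of the other cluster, hsa-miR-143-5p and hsa-miR-145-3p, stayed at or below 34.3 and 41.1 CPM in all libraries. MiR-143-3p had 550 to 1529 times the reads of miR-143-5p in BE(2)C and HepG2, and in the other lines miR-143-5p had at most 2 reads.

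**Figure D5:**
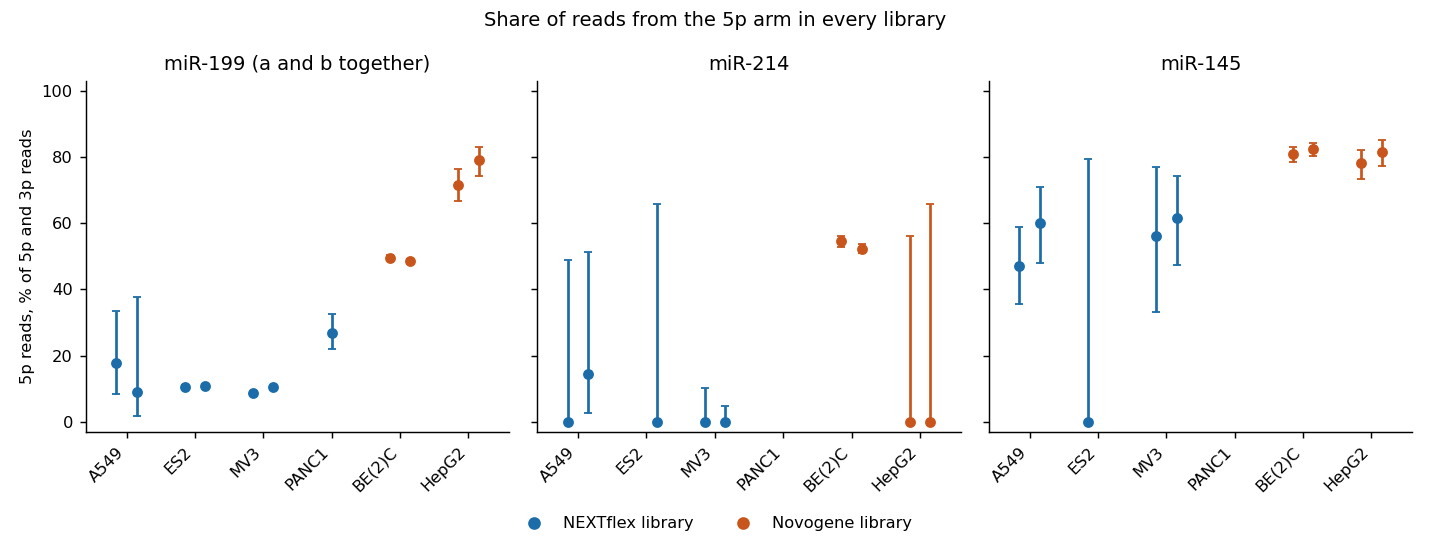
Points give the reads of the 5p arm as a percentage of 5p and 3p reads (y axis, 95% Wilson intervals) in every library with reads, by line (x axis), for miR-199, miR-214 and miR-145, with NEXTflex libraries in blue and Novogene libraries in orange. For miR-199, ES2 and MV3 lie between 8.67% and 10.9%, BE(2)C at 49.6% and 48.6%, and HepG2 at 71.7% and 79.1%.

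Other miRNAs with the printed seeds were scarce. Hsa-miR-3129-5p, which shares the seed of miR-199-3p, had at most 6.79 CPM, and hsa-miR-3619-5p, with the seed of miR-214-3p, at most 1.94 CPM. Hsa-miR-761 (seed of miR-214-3p) and hsa-miR-4770 and hsa-miR-6088 (seed of miR-143-3p) had 0 reads in all libraries.

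Profiles most like each member were sought among 306 miRNAs that averaged 100 CPM or more in some line, by Pearson's r of log2 line means over 6 lines that share their libraries and preparations. MiR-296-3p was the nearest to miR-199a-5p (r = 0.996) and to both 3p rows (r = 0.958 each), with miR-671-3p next for all 3 (r = 0.952, 0.915 and 0.914). The third was miR-17-5p for miR-199a-5p (r = 0.95) and miR-20a-5p for the 3p rows (r = 0.912 and 0.914). MiR-199b-5p was nearest to miR-361-3p (r = 0.95), miR-378a-3p (r = 0.903) and miR-3615 (r = 0.888). MiR-214-3p was nearest to miR-504-5p (r = 0.960), miR-99b-3p (r = 0.951) and miR-2682-5p (r = 0.946). MiR-214-5p, with reads in BE(2)C almost alone, resembled other miRNAs listed at or near 0 elsewhere, miR-218-2-3p (r = 1.0), miR-490-5p (r = 0.999) and miR-490-3p (r = 0.999). For miR-143-3p these were miR-215-5p (r = 0.883), miR-193b-3p (r = 0.832) and miR-29c-5p (r = 0.831), and for miR-145-5p miR-215-5p (r = 0.917), miR-29c-5p (r = 0.887) and miR-378i (r = 0.851). Between members, r was 0.994 for miR-143-3p and miR-145-5p, 0.736 for miR-199a-5p and miR-214-3p, and 0.354 for miR-199a-5p and miR-199b-5p. Members of different loci reached similar values, with 0.749 for miR-214-3p and miR-145-5p and 0.709 for miR-214-3p and miR-143-3p. By contrast, miR-199a-5p had 0.264 with miR-145-5p and 0.183 with miR-143-3p.

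A list of 15 further miRNAs known from connective tissue, cartilage and muscle was read in the same tests, of which 13 passed the filter and miR-133b and miR-206 did not. In A549, 8 of the 13 were lower than in ES2 (276 of all 546 called in either direction) and 8 lower than in MV3 (313 of 546), and 0 were higher in either test. ES2 was higher than MV3 in 2 and lower in 2, which is near the share over all miRNAs (179 of 546). BE(2)C was higher than HepG2 in 12, where 453 of 546 were called, and lower than ES2 in 7 and higher in 5, where 423 of 546 were called. The median log2 difference over the 13 was -2.61 for BE(2)C minus ES2, where that of all miRNAs was 1.08, and 2.56 for BE(2)C minus HepG2, where that of all miRNAs was 2.79. Thus miR-100-5p, abundant in many mesenchymal cells, had 111145 CPM in ES2, 69925 CPM in MV3 and 279 CPM in BE(2)C, and miR-29a-3p, which targets collagen mRNAs, had 25034, 14979 and 380 CPM. MiR-152-3p, miR-140-3p, miR-10b-5p and miR-140-5p had their highest means in BE(2)C (1855, 1271, 6016 and 93.5 CPM), as did 6 of the 8 members. The share of all miRNAs with their highest mean in BE(2)C was not computed. The median log2 difference of all miRNAs was positive for BE(2)C minus HepG2, A549, ES2 and MV3 (2.79, 1.38, 1.08 and 0.48).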

How the data were processed

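Small RNA-seq tables of 11 libraries were used, grouped by their cell line labels. Per the labels, the submitters' processing notes name hg38, cutadapt 1.14, Bowtie2 2.3.2, SAMtools 1.5, featureCounts 1.5.3 and edgeR 3.30.3; strand and treatment of reads matching several loci are not given in the sources used here. The deposited PANC1 table held CPM. In the remaining tables the authors deposited a signal, namely CPM divided by factors set within each table. All nonzero values were whole multiples (tolerance 0.01) of the value of a read, so that reads were recovered, rows of a name summed and CPM recomputed per library. The design had assumed CPM throughout. The filter kept miRNAs averaging 10 CPM or more in any line. Differences were tested with limma 3.58.1 (R 4.3.3) after log2(CPM + 1) transformation (cell line as factor, eBayes with trend, two-sided contrasts, Benjamini-Hochberg over all tested miRNAs, threshold 0.05). Because of the pseudocount of 1, differences of low miRNAs are understated. PANC1, with 1 library, entered the fits and F tests but no contrast. The scripts were tested on simulated data. Alternatives were TMM factors, edgeR 4.0.16, DESeq2 1.42.0, deposited values, pseudocounts of 0.5 and 5, no filter, a replicate block, the highest genomic copy and leaving out each replicated library. Members, lists and tests were chosen with earlier results of these data known. Named were the members, their other arms, seed mates, the 3 nearest profiles per member and the context list; miR-217-5p of the marker lists was not matched by name. The replicate numbers did not pair the libraries: differences between replicates correlated at -0.053 to 0.109 over the pairs of lines.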

Additional observations from a re-analysis of the deposited data

How the results depend on the processing

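The normalization mattered most, because TMM factors of HepG2 were far from those of the other lines. With TMM factors, the edgeR quasi-likelihood test and DESeq2, 5 members each were called for BE(2)C against HepG2 instead of 8, and 5 each for HepG2 against A549 instead of 2. For BE(2)C minus HepG2, hsa-miR-145-5p turned to -0.27, -0.25 and -0.43 in this order of methods, and hsa-miR-143-3p to -0.10 with DESeq2. For HepG2 minus A549, hsa-miR-199a-3p turned from -0.00 to 2.26, 2.45 and 2.46 and hsa-miR-199b-3p from -0.25 to 1.65, 1.82 and 1.86. For HepG2 minus ES2, hsa-miR-199b-5p turned from -1.32 to 1.41, 1.40 and 1.75. The ratio of the summed miR-143-3p and miR-145-5p of BE(2)C to HepG2 became 1.01 with TMM factors, an alternative added after seeing the data, against sums of 21559 and 2634 CPM. HepG2 against A549 had 1 called member with a pseudocount of 5 or with no filter. With no filter, hsa-miR-199a-5p (adjusted p = 0.0694) and hsa-miR-199b-3p (0.0708) were lost for BE(2)C against ES2 and hsa-miR-143-3p (0.0898) for HepG2 against MV3. A pseudocount of 0.5 lost hsa-miR-199a-5p for BE(2)C against ES2 (0.0528), and DESeq2 called it for BE(2)C against MV3 (0.98, adjusted p = 0.0433). With each replicated library left out, called members ranged from 5 to 8 for BE(2)C against ES2 and from 1 to 3 for HepG2 against A549, from 5 to 6 for HepG2 against ES2 and MV3 and from 4 to 5 for ES2 against MV3, and were unchanged in number for the other comparisons. A line left with 1 library was assumed to vary like the others. The 5 resulted without ES2 replicate 1 or 2, and the 1 without A549 replicate 2, HepG2 replicate 1 or HepG2 replicate 2. Members highest in BE(2)C numbered 5 to 6. The replicate block called 7 members for A549 against ES2 (hsa-miR-214-3p added, adjusted p = 0.030) and changed no other call. Deposited values and the highest genomic copy changed no call. With a pseudocount of 1 read in place of bounds, ratios stayed within their bounds or intervals. For the bounds this was fixed in advance, since 1 read lies under the limit of 3 reads. Depth limits statements on miR-214, miR-145-5p and miR-199b-5p at 0 to 3 reads.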
